A study of Mus musculus with 12 samples.

Results

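Albulin, a fusion of insulin to albumin, was compared with saline in the liver of C57BL/6 mice, 6 h after a subcutaneous dose of 55 nmol/kg. The comparison holds 6 of the 12 arrays of the series, the 3 whose titles name albulin and the 3 whose titles name saline. A probe set, the group of probes that reads 1 transcript cluster, was a member if 2 or more arrays of either group had a log2 value over 5, which gave 25952 of the 28213 probe sets on the array. In the other arrays the treatment, at the same dose, was Insulin-Apo, the fusion of insulin with apolipoprotein A-I, or insulin glargine, a long-acting analogue of the hormone. The labels give wild type mice aged 6 weeks, and the methods give female C57BL/6J mice of 7 weeks. Both fusion proteins were made in bacteria, so the Albulin group received a recombinant protein from E. coli and the saline group received no protein. No array of the series has a bacterial protein without insulin as its control, so the hormone and the other parts of the preparation cannot be told apart in these groups. Each group is a single time and a single dose. The study describes 3 samples of treated mice per group, but the labels do not tie each array to a mouse of its own, so the tests cover the spread between arrays, which may be partly technical.

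Insulin acts on the hepatocyte through its receptor, the IRS adaptors and the kinase AKT, which shuts FoxO transcription factors out of the nucleus, lowers glucose output and raises glycogen and fatty acid synthesis. The same cell is the main source of the acute phase proteins, secreted in bulk when cytokines of the interleukin 6 and interleukin 1 families reach the liver and act through STAT3, C/EBP and NF-kB. The liver also keeps a circadian clock, whose output genes follow feeding and hormones.

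The array medians lay between 7.71 and 7.77 in the saline and Albulin groups, and arrays of a group correlated at 0.996 on average. Hepatocyte markers fitted the labelled tissue. None of the 9 measured rose or fell, their summed intensity on the linear scale was 204380 to 207280 in saline and 201410 to 204411 after Albulin, and albumin itself (Alb) had a log2 difference of -0.00 with a standard error (SE) of 0.05. Ins2, an insulin gene of the pancreas, had a saline mean of 7.06 and differed by 0.05 (SE 0.07), so a gene that liver does not express can read at this level. The deposited values carry no detection calls, and a fold change from or to values this low may be a lower bound. Since whole liver was measured, a change in the share of a cell type and a change in RNA per cell cannot be told apart.

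Differences were tested in a limma fit of the saline, Albulin and Insulin-Apo arrays, and a probe set was called higher or lower when B, the log odds of a difference, was over 0. Of 25989 probe sets tested, 626 were called, which is 2.41%. After Albulin 356 rose (1.37%) and 270 fell (1.04%), and the largest adjusted p among them was 0.0219. No called probe set had overlapping saline and Albulin arrays, and among all probe sets the groups did not overlap in 6061 (23.3%). Where the groups of a gene are said not to overlap, this share is to be read beside it. Most changes were small. Their median absolute size was 0.58 on the log2 scale, against 0.08 over all probe sets tested, and only 81 reached 1, 57 of them higher and 24 lower. Counted as genes, with the brightest probe set of each of 18902 genes, 296 rose (1.57%) and 242 fell (1.28%). The shares of the gene lists are to be read against these percentages. The count of 626 fell to 411 when saline replicate 2 was left out, with 248 higher and 163 lower. Without Albulin replicate 2 there were 326 higher and 146 lower, without Albulin replicate 1 233 and 188, and with all 12 arrays in the fit 278 and 179. A gene named as risen or fallen was called in all 21 alternatives that use B, each array left out in turn among them, unless losses are given beside it.

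**Figure D1:**
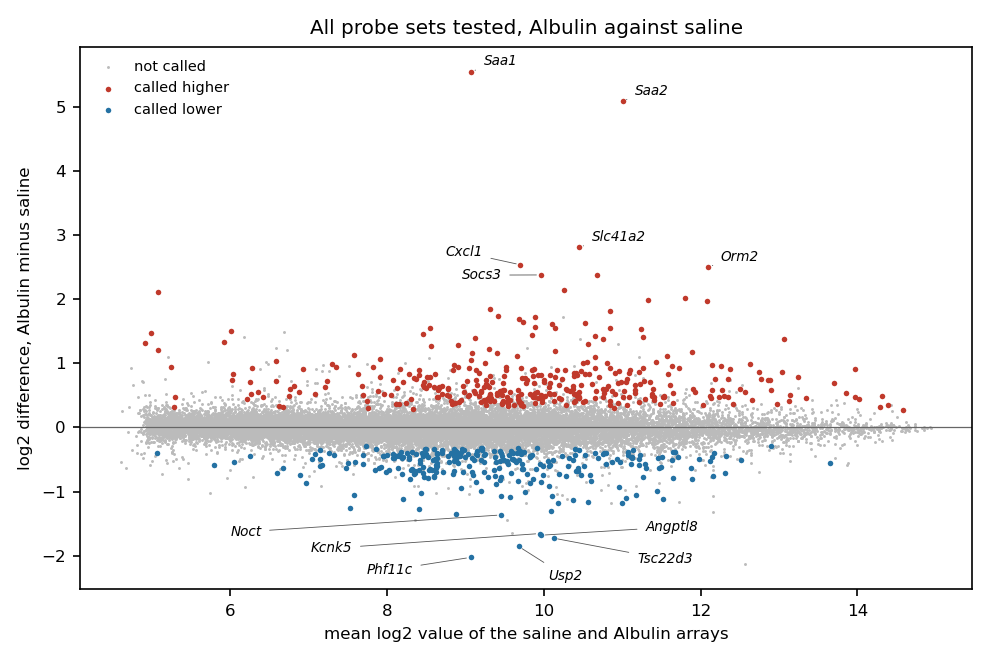
Log2 difference between the Albulin and saline means (vertical axis) against the mean log2 value of the 6 arrays (horizontal axis) for the 25989 probe sets tested. Red points were called higher (356), blue points lower (270) and grey points were not called. The 6 called genes with the largest change in each direction are named, and the increases reach further than the decreases.

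Among the 12 called genes that rose most, Saa1 and Saa2 (serum amyloid A) stood far above the others at 46.9-fold and 34.1-fold. The saline mean of Saa1 was 6.30, so its fold may be a lower bound. Slc41a2, a magnesium transporter, followed at 7.05-fold, then Cxcl1, a chemokine that attracts neutrophils, at 5.81-fold. B3galt1, a galactosyltransferase, rose 5.20-fold (log2 difference 2.38, SE 0.18, adjusted p = 0.000177). Its log2 values were 9.34, 9.49 and 9.66 after saline and 12.17, 11.73 and 11.72 after Albulin. Efna1, the cell surface ligand ephrin A1, was at 8.94, 9.60 and 9.04 in saline and at 11.82, 11.31 and 10.85 after Albulin, a log2 difference of 2.14 (SE 0.30). The centrosomal protein gene Tacc2 rose 3.58-fold and the repressor Nfil3 3.33-fold. In each of these genes the lowest Albulin array lay more than 1 log2 unit above the highest saline array. None of the 12 lost its call in an alternative that uses B.

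The largest decreases among called genes were smaller. Phf11c was first of these by size with a log2 difference of -2.03 (SE 0.39), and it also had the widest saline spread, 10.57, 9.29 and 10.38 against 7.99, 8.13 and 8.03. Its call was lost when any Albulin array, saline replicate 1 or saline replicate 3 was left out. Usp2, a ubiquitin protease under clock control, fell 3.62-fold, and Tsc22d3 (GILZ), a classical glucocorticoid target, 3.31-fold. Kcnk5, a potassium channel, was at 10.84, 10.69 and 10.80 after saline and at 8.33, 9.22 and 9.81 after Albulin. Its 3 Albulin arrays were spread over more than 1 log2 unit and all lay below saline. Sorbs3 (vinexin), an adaptor of focal adhesions, was tighter, at 10.78, 10.94 and 10.54 against 9.45, 9.47 and 9.42, a log2 difference of -1.31 (SE 0.10, adjusted p = 0.000177). Map2k6, a kinase upstream of p38, fell 2.41-fold, Arhgef37, a guanine nucleotide exchange factor by its sequence family, 2.40-fold, and Fam13a 2.26-fold. Hsd3b2, a hydroxysteroid dehydrogenase, fell 2.55-fold and its relative Hsd3b3, named after its values were seen, 2.14-fold, with the call of Hsd3b3 lost in 6 alternatives, the replicate block among them. These genes have near-identical copies, so their probes may read more than 1 of them.

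**Figure D2:**
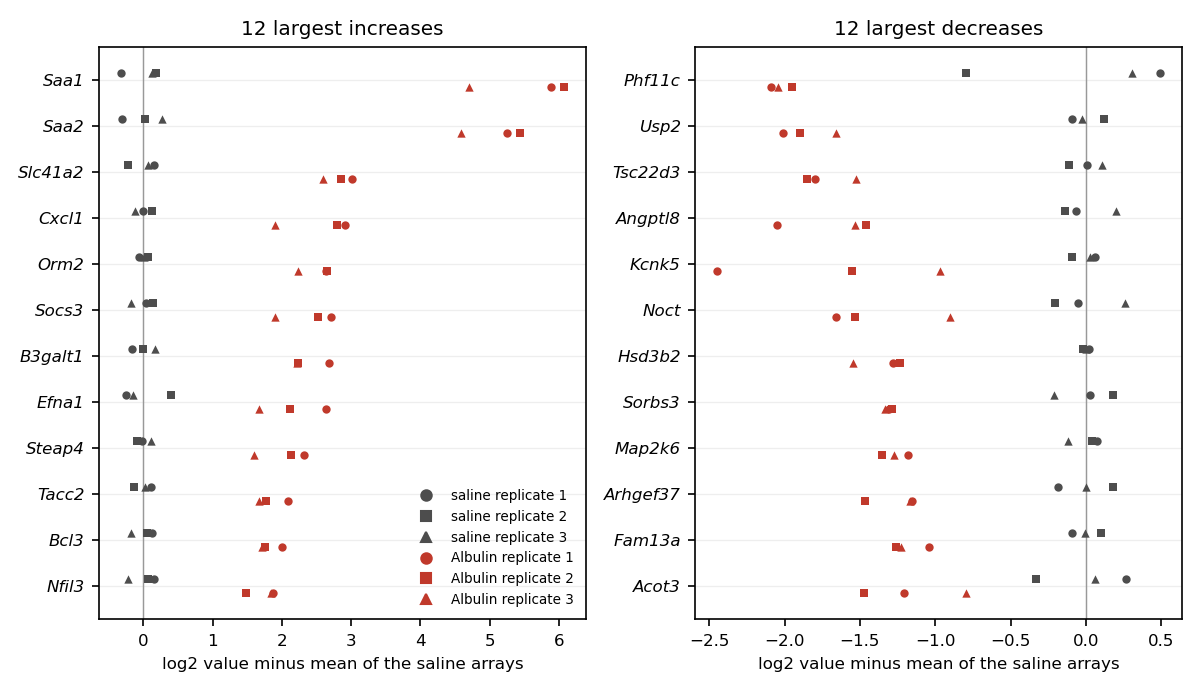
Log2 value of each array minus the mean of the saline arrays (horizontal axis) for the 12 called genes with the largest increase (left) and the 12 with the largest decrease (right). Grey symbols are saline arrays, red symbols Albulin arrays, and the shape gives the replicate number. The groups do not overlap in any of the 24 genes, and Phf11c has the widest saline spread among the decreases.

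Acute phase proteins formed the list with the largest share of calls, among lists chosen with earlier results of these data known. Of 24 measured, 14 rose and none fell, against 1.57% and 1.28% of all genes, and the median log2 difference was 0.40, against 0.00 over all genes. All 24 had a positive difference. The count was 9 without Albulin replicate 2 or without saline replicate 1. Apart from the serum amyloid A genes, the rises ran from Orm2 (an orosomucoid) at 5.69-fold down to Fgg, the fibrinogen gamma chain, at 1.21-fold.

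Saa1 (probe set 10563611) had log2 values of 5.98, 6.49 and 6.43 after saline and 12.18, 12.37 and 11.003 after Albulin. Saa2 (probe set 10553274) went from 8.16, 8.49 and 8.73 to 13.72, 13.90 and 13.04. In both genes, which are near-identical in sequence and may share signal, Albulin replicate 3 was the lowest of its group. Orm2 was at 10.78, 10.91 and 10.85 in saline and 13.49, 13.49 and 13.08 after Albulin, again with replicate 3 lowest. The same array moved least in 12 of the 14 genes that rose.

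Serpina3n, a protease inhibitor, went from 13.95, 14.13 and 14.11 to 14.63, 14.60 and 14.46, a log2 difference of 0.50 (SE 0.08, adjusted p = 0.00493). Apcs, serum amyloid P, rose by 0.98 (SE 0.14), Saa4 by 0.74 (SE 0.10), Orm3 by 0.82 (SE 0.15), Orm1 by 0.48 (SE 0.07) and Itih4 by 0.44 (SE 0.08). The haptoglobin gene Hp rose by 0.32 and the fibrinogen genes Fga and Fgg by 0.35 and 0.27, and the calls of Hp, Fgg and Fga were lost in 12, 14 and 5 of 21 alternatives. Those of Orm3 and Itih4 were each lost in 4, without Albulin replicate 1 or 2 or saline replicate 1 or 3, and that of Saa4 with all 12 arrays. Lcn2 (lipocalin 2), which binds bacterial siderophores, rose 2.61-fold, from 12.56, 12.36 and 12.21 to 13.79, 13.83 and 13.66. Itih3, Lbp and Fgb had differences of 0.35, 0.33 and 0.26 and were not called. Crp, Cp, Cfb, Ttr, Hpx and A2m were not called and lay between 0.01 and 0.17. Saa3, which macrophages also make, was not called at 0.45 with an SE of 0.61, an SE that is set by an Insulin-Apo SD of 1.72.

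**Figure D3:**
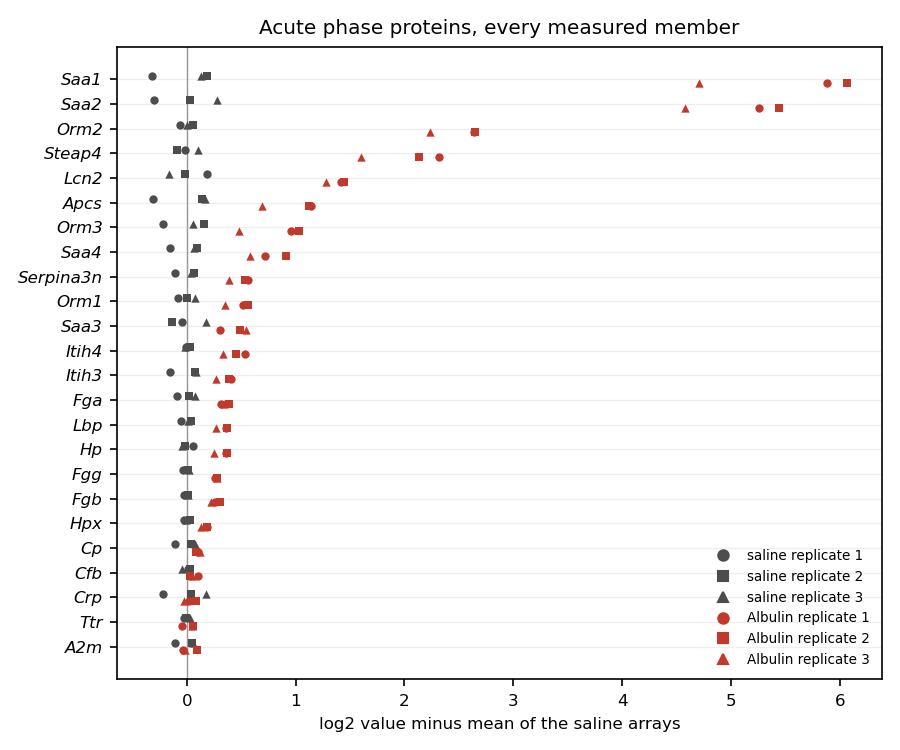
Log2 value of each array minus the mean of the saline arrays (horizontal axis) for the 24 measured acute phase proteins, ordered by the difference. Grey symbols are saline arrays, red symbols Albulin arrays, and the shape gives the replicate number. Albulin replicate 3 is the lowest Albulin array in most genes of the upper part.

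The promoters of these genes were searched for the sequences bound by acute phase factors. The sequences shown were picked from named genes that hold the element of their group, and genes without a match are not shown. They were read from RefSeq on GRCm38.p6 and are written 5′ to 3′ on the strand of the gene. Capitals mark the match, a C/EBP element (TTGCNNAA) in Saa1, Saa2 and Orm2 and a STAT element (TTCNNNGAA) in Socs3 and Steap4. The Saa1 stretch is chr7:46743144-46743173 on the minus strand and its match starts 182 bases upstream of the start site. The Saa2 stretch is chr7:46751613-46751832 on the plus strand with a match at 183 bases, and the Orm2 stretch is chr4:63362229-63362448 on the plus strand with a match at 120 bases.
Saa1: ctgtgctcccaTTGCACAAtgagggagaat
Saa2: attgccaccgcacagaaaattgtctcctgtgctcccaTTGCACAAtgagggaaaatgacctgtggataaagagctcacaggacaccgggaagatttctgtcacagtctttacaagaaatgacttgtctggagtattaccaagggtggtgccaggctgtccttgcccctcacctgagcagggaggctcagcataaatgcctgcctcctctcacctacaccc
Orm2: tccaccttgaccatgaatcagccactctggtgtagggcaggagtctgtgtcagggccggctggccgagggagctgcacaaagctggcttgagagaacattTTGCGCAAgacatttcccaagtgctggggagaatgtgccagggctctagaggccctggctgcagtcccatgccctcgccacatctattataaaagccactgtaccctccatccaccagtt
Socs3: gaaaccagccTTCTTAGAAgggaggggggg
Steap4: ggttgaactcTTCCCGGAAactttgcttca
The Socs3 stretch is chr11:117969501-117969530 on the minus strand and the Steap4 stretch chr5:7960346-7960375 on the plus strand, with matches that start 154 and 116 bases upstream. Saa1 and Saa2 carry the same 8 letters of the element at nearly the same distance.

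Both motifs were counted on both strands in windows from 250 bases before to 50 bases after each start site, chromosome 18 left out, with overlapping matches of different motifs counted for each. The C/EBP element lay in 12.9% of 286 windows of genes that rose, in 7.45% of 255 windows of genes that fell, in 9.47% of the windows of tested genes and in 10.8% of all 32851 windows of the table. For the STAT element the shares were 11.9%, 3.14%, 7.54% and 8.30%. An NF-kB element, searched in the same way, lay in 7.69% of the windows of genes that rose and 9.80% of those tested. The core of the ER stress element (TGACGTGG) was in 2.10% of windows of genes that rose (6 of 286). It was in none of those that fell and in 0.797% of those tested. More motifs were counted, with shares given here for genes that rose and for genes tested. The sterol response element had 1.05% and 1.19%, the FoxO element 2.8% and 2.9% and the cAMP response element 2.8% and 2.46%. The E-box (CACGTG) had 8.04% and 8.44%, with 11.4% in genes that fell. CCAAT had 38.1% and 37.2%, and a glucocorticoid site (AGAACA) 16.8% and 14.8%. These are counts of letters in windows and no site was measured.

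Of 32 receptors and signalling factors through which cytokines reach the hepatocyte, 9 were called higher and none lower. The other 23 were not called, 10 of the 32 differences were below 0, and the median was 0.16. Socs3, the feedback inhibitor of JAK and STAT signalling, was at 8.80, 8.92 and 8.59 after saline and at 11.48, 11.30 and 10.67 after Albulin, a log2 difference of 2.38 (SE 0.30, adjusted p = 0.00199). Bcl3, a nuclear member of the I-kappa-B family, went from 10.06, 9.98 and 9.76 to 11.94, 11.68 and 11.64. The receptors called higher were Il17ra, Osmr (the oncostatin M receptor) and Tnfrsf1a (TNF receptor 1), at 2.34-fold, 1.91-fold and 1.86-fold. Il17ra reached 10.35 in Albulin replicate 1, above the 9.78 and 9.61 of the others, and its saline arrays were at 8.65, 8.83 and 8.58. Inside the cell, Stat3 rose 1.70-fold, Jak1 1.31-fold and Myd88, the adaptor of toll-like and interleukin 1 receptors, 1.80-fold. Icam1, an adhesion molecule, rose 1.43-fold. The call of Jak1 was lost in 5 alternatives, the replicate block among them, and that of Icam1 without Albulin replicate 1 or saline replicate 3.

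Further adaptors of the same routes were looked up after their values were seen. Tifa rose 2.92-fold, Tirap 1.79-fold, Tnip2 1.63-fold, Map3k8 1.53-fold and Tab2 1.52-fold, and Tank by 0.48 on the log2 scale. Tifa was at 9.21, 9.48 and 9.42 after saline and at 11.57, 10.83 and 10.35 after Albulin, so that replicate 1 exceeded replicate 3 by more than 1 log2 unit. The call of Tifa was lost without saline replicate 1, and that of Tank in 8 alternatives, the replicate block among them.

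Of 25 chemokine and cytokine genes measured, Cxcl1 and Cxcl13 rose and the median was -0.01. The call of Cxcl13 was lost with all 12 arrays in the fit. Cxcl1 was at 8.43, 8.56 and 8.31 against 11.35, 11.24 and 10.33. Ccl3, Ccl6 and Ccl9 were not called, and their groups did not overlap, as in 23.3% of all probe sets. Their log2 differences were 1.01, 0.96 (adjusted p = 0.0488) and -0.54 (adjusted p = 0.101), and Ccl6 was called in 2 of 21 alternatives. Ccl2 and Tnf were at 0.28 and 0.10 and were not called. Of 21 interferon response genes only Mx2, an antiviral GTPase, was called, at 1.78-fold.

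Some marker genes of neutrophils and monocytes were called in the same arrays. Of 9 neutrophil markers 3 were called higher, S100a8 at 1.93-fold, Cxcr2 at 1.89-fold and S100a9 at 1.55-fold, and the median log2 difference was 0.49. S100a8 was not called in 5 of 21 alternatives and Cxcr2 in 5, the replicate block among them for both, and without saline replicate 1 only 1 of the 9 was called. Their summed linear intensity was 1265 to 1452 after saline and 1850 to 2098 after Albulin. Mpo and Elane, which mark neutrophil granules, differed by 0.04 and -0.03, and the neutrophil markers Csf3r and Ngp by 0.09 and 0.13. Retnlg and Ly6g, also not called, differed by 0.84 (adjusted p = 0.0236) and 0.49 (adjusted p = 0.0319). Of 4 monocyte markers Chil3 and F13a1 were called higher, and the sum was 2417 to 2720 in saline and 3142 to 3437 after Albulin. No marker of Kupffer cells, sinusoidal endothelium, stellate cells, cholangiocytes, B cells, T cells, erythroid cells, exocrine pancreas or adipocytes was called. The saline means of S100a8, Cxcr2, F13a1 and Chil3 were 6.87, 6.48, 6.46 and 5.62, so their signal without Albulin is not shown to lie above background. The same limit holds for Ly6g and Ngp, with saline means of 6.238 and 5.955. The part of leukocytes in the changes above was not tested.

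Metal handling genes were called in 5 of 27, all higher, with a list median of 0.02. Steap4, a metalloreductase of iron and copper, was at 10.78, 10.71 and 10.90 after saline and 13.12, 12.93 and 12.40 after Albulin. Slc30a10, a manganese exporter, was the most even, at 8.87, 8.73 and 8.87 against 10.01, 9.97 and 9.99, a log2 difference of 1.17 (SE 0.08, adjusted p = 0.000125). Slc39a14 (ZIP14), which brings zinc, iron and manganese into the hepatocyte, rose 1.95-fold. Mt1, a metallothionein, rose 1.89-fold and Hmox1, the haem oxygenase, 2.03-fold, with the call of Hmox1 lost with all 12 arrays and without Albulin replicate 3 or saline replicate 2. Hamp, the iron hormone hepcidin, was not called at 0.23. Steap4 is counted here and among the acute phase proteins.

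Magnesium transporters and tubulins were put on a list because earlier results of these arrays were known, and the list is no independent evidence. Slc41a2 was at 9.20, 8.83 and 9.12 in saline and 12.05, 11.90 and 11.64 after Albulin. The related Slc41a1 rose 1.63-fold and Slc41a3 fell 1.56-fold. The call of Slc41a1 was lost without any 1 of the saline arrays and without Albulin replicate 1 or 2. Tubb2a, a beta tubulin, rose 2.71-fold. Of the 20 genes measured these were the 4 called.

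Glutathione and redox genes were called in few cases. Among 29 phase II enzymes, the glutamate-cysteine ligase genes Gclc and Gclm, which make the first intermediate of glutathione, rose 1.83-fold and 1.29-fold and Gstt2 fell 1.38-fold. Neither ligase gene was called when only the saline and Albulin arrays were fitted, and in all Gclc lost its call in 9 alternatives and Gclm in 7. Chosen after their values were seen, Osgin1 rose 3.10-fold and Txnrd1, a thioredoxin reductase, 1.64-fold, while Nfe2l2 (NRF2), a factor known to drive such genes, fell 1.39-fold and lost its call in 4 alternatives. Osgin1 went from 9.80, 9.59 and 9.73 to 11.53, 10.99 and 11.48. Of 28 cytochrome P450 genes and their receptors, only Nr1i3 (CAR), a xenobiotic receptor, was called, at a log2 difference of -0.76 that lost its call in 9 alternatives.

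Of 25 genes of the unfolded protein response, Xbp1, its transcription factor, Dnajb9, a chaperone of the endoplasmic reticulum, and Manf were called, at 1.82-fold, 1.88-fold and 1.47-fold, with a list median of 0.17. Xbp1 was at 12.45, 12.70 and 12.67 after saline and 13.62, 13.51 and 13.30 after Albulin. Hspa5 (BiP) was not called at 0.28, nor Ddit3 (CHOP) at -0.08. With all 12 arrays in the fit, only Manf of the 3 was called. Genes of vesicle traffic, named after their values were seen, included Sec23b at 1.81-fold, Sec24d at 1.56-fold, both of the coat that leaves the endoplasmic reticulum, Golt1b at 1.55-fold and Sec22b at 1.51-fold. The calls of Sec24d and Golt1b were lost in 5 and 4 alternatives that leave out 1 array, any Albulin array for Sec24d. The glycosyltransferases B4galt1, Alg2 and St3gal1, chosen in the same way, rose 2.46-fold, 1.76-fold and 1.59-fold. B4galt1 was at 9.99, 9.82 and 9.94 against 11.42, 11.12 and 11.12.

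Of the integrated stress response, 1 of 22 genes was called. Chac1, which degrades glutathione, rose 3.22-fold, from 8.98, 8.79 and 8.75 to 11.14, 10.20 and 10.25, with replicate 1 well above the others. Atf4 and Asns, the classical members, had differences of 0.35 and 0.37 and were not called. For Atf4 the groups did not overlap (adjusted p = 0.0221), and it was called in 5 of 21 alternatives. Among 22 heat shock proteins, Hspb8 rose 1.68-fold and its partner Bag3 1.36-fold, and Bag3 lost its call in 11 of 21 alternatives, the replicate block among them. Hsp90aa1 was not called by its brightest probe set, at 0.39, while 1 of its 3 probe sets was called. None of 35 proteasome genes was called, with a median of 0.02, and of 30 autophagy and lysosome genes only Atg14 was, at 1.47-fold.

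Of 56 ribosome biogenesis genes measured, 8 were called higher and none lower. The other 48 were not called, 48 of the 56 differences were positive, and the median was 0.18. Nop58, a core protein of the small nucleolar particles that modify ribosomal RNA, was at 8.73, 8.69 and 8.85 after saline and 9.85, 9.64 and 9.78 after Albulin, a log2 difference of 1.00 (SE 0.12). Tsr1, Gnl2, Gnl3, Heatr1, Utp14a, Bysl and Ftsj3, which act in the assembly of the small or large subunit, rose by 0.35 to 0.58. Albulin replicate 2 was the lowest of its group in 7 of the 8. The count depended on single arrays: it was 4 without Albulin replicate 1, 3 without Albulin replicate 3, 4 without saline replicate 2 and 5 without saline replicate 3. Ftsj3 lost its call in 12 alternatives, Heatr1 in 5, Bysl in 4, Gnl3 in 3 and Utp14a without Albulin replicate 3.

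In contrast to the assembly factors, none of 30 cytosolic ribosomal proteins was called, with a median of -0.07. Of 35 translation factors and aminoacyl-tRNA synthetases 3 were called higher, Eif1a at 1.76-fold, Tars at 1.69-fold and Wars at 1.31-fold, with a median of 0.14, and Wars lost its call without saline replicate 1. The difference between the lists was not tested. Mitochondrial respiratory chain genes had 37 of 39 differences below 0 and a median of -0.08, and none was called. The array means of this list overlapped, at 12.209, 12.287 and 12.189 after saline and 12.191, 12.13 and 12.099 after Albulin. Of 26 amino acid transporters Slc3a1 rose 1.86-fold, a call lost with all 12 arrays. No gene among the 28 measured of the urea cycle and amino acid breakdown was called, with a median of -0.11, and in the methionine and folate list only Mtrr was, at -0.42, a call lost in 13 alternatives.

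Genes of insulin action were changed in single members. Of 29 genes from the receptor to FoxO, Ptpn1 (PTP1B), the phosphatase that acts on the receptor, rose by 0.59 on the log2 scale, and Irs1 and Foxo3 fell 1.72-fold and 1.37-fold. Irs1 was at 9.08, 8.77 and 8.90 after saline and 7.94, 8.01 and 8.45 after Albulin, with Albulin replicate 3 closest to saline, and its call was lost in 5 alternatives and was made by 1 of its 2 probe sets. The insulin receptor Insr differed by -0.05, with a 95% interval of -0.20 to 0.09. Irs2, the other main adaptor in liver, had a difference of 0.43 and was not called.

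Glucose output genes were not called. Among 19 measured, the median was -0.13 and 15 were below 0. The smallest p values belonged to the aminotransferases Got1 and Gpt, whose groups did not overlap and whose log2 differences were -0.56 (SE 0.12, adjusted p = 0.0257) and -0.62 (SE 0.14, adjusted p = 0.0293). Got1 was called in 7 of 21 alternatives and Gpt in none. Pck1, the enzyme that commits to gluconeogenesis, was at 14.23, 14.12 and 14.17 after saline and 14.02, 13.94 and 14.14 after Albulin, a log2 difference of -0.14 with a 95% interval of -0.30 to 0.02. For G6pc, which releases free glucose, the difference was -0.17 with an interval of -0.39 to 0.06. Ppargc1a (PGC-1alpha), a coactivator of the fasting liver, was at 11.35, 11.54 and 11.71 against 10.30, 10.47 and 10.90. Its groups did not overlap, and with an SE of 0.25 it was not called (adjusted p = 0.055). The related Ppargc1b, looked up after its value was seen, fell 1.56-fold and lost its call in 4 alternatives, the replicate block among them.

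Glycolysis was called in both directions. Of 22 genes, Pklr, the liver pyruvate kinase, rose 2.26-fold, from 11.54, 11.25 and 11.11 to 12.53, 12.24 and 12.66, and Tkfc, which phosphorylates the glyceraldehyde released from fructose, rose 1.66-fold. Pdk2, a kinase that shuts off pyruvate dehydrogenase, fell 1.55-fold, and Pfkfb3 1.54-fold. Pfkfb3 lost its call in 7 alternatives, both rescalings and any saline array left out among them, Tkfc in 4 that leave out 1 array, and Pdk2 without Albulin replicate 3. Mlxipl (ChREBP), the glucose-sensing factor upstream of Pklr, had a difference of 0.52 and was not called. In the glycogen list of 17 genes only Ppp1r3b, which brings a phosphatase to glycogen, was called, and it fell 2.12-fold, a call lost without Albulin replicate 1 or 2 or saline replicate 3. Prkag2, a regulatory subunit of AMP-activated kinase named after its value was seen, fell 1.78-fold.

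Of 21 fatty acid synthesis genes measured 5 were called higher and none lower, and the list median was 0.08. Acly, which makes cytosolic acetyl-CoA from citrate, was at 10.02, 10.12 and 10.06 after saline and 11.82, 11.26 and 11.75 after Albulin, a log2 difference of 1.55 (SE 0.16, adjusted p = 0.00069). Acaca, which carboxylates it to malonyl-CoA, went from 10.29, 9.81 and 10.08 to 11.56, 11.26 and 11.52, and Fasn, the synthase, from 10.23, 9.81 and 9.79 to 11.58, 10.89 and 11.64. Elovl6, an elongase, rose 1.90-fold and Thrsp (Spot 14) 1.87-fold. Albulin replicate 2 was the lowest of its group in all 5. Thrsp came nearest to overlap, with 9.47 in that array against 9.28 in the highest saline array, and lost its call in 11 of 21 alternatives. The oxidative pentose phosphate enzyme Pgd, which supplies NADPH, rose 1.90-fold, and Me1, the malic enzyme, had a difference of 0.70 and was not called. Srebf1, the gene of the SREBP-1 factor, was at 0.24 with a 95% interval of 0.01 to 0.47 and Scd1, the desaturase, at 0.07, neither of them called.

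Set against Insulin-Apo in the same fit, 166 of the 25989 probe sets were called (0.639%), and the fatty acid genes were among them. Acly after Insulin-Apo was at 10.42, 9.97 and 9.89, so that Albulin was higher by 1.52 on the log2 scale (SE 0.16, adjusted p = 0.00804). For Acaca, Fasn and Pgd the Albulin mean exceeded the Insulin-Apo mean by 1.09, 1.46 and 0.93. For Thrsp the gap was 1.61, with Insulin-Apo at 8.45, 8.22 and 8.44, below all saline arrays. Pklr differed by 0.95 (adjusted p = 0.0653, B over 0). Elovl6 differed by 0.62 and was not called. Saa1 and Saa2 differed between the fusion proteins by 0.22 (SE 0.42) and 0.14 (SE 0.28), and neither was called. Other genes of the acute phase and cytokine lists were not uniform in this test. Il17ra was higher after Albulin by 0.98 and was called (adjusted p = 0.0484). Cxcl1 and Bcl3, at 1.26 and 0.73, and Cxcl13 and Orm2, at -0.65 and -0.195, were not called.

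**Figure D4:**
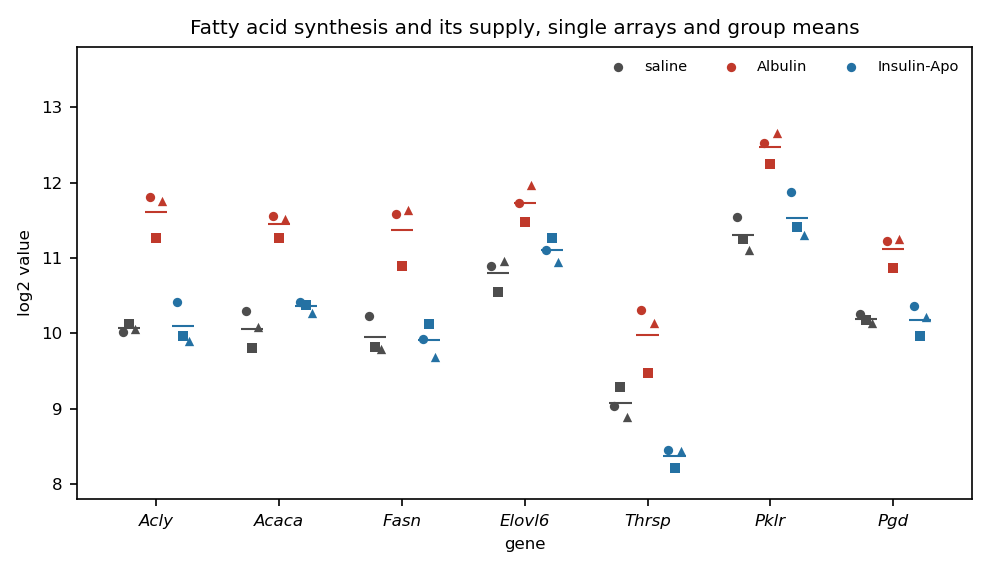
Log2 values (vertical axis) of 7 genes of fatty acid synthesis and its supply in the arrays of saline (grey), Albulin (red) and Insulin-Apo (blue). Symbols are single arrays, with circles, squares and triangles for replicates 1, 2 and 3, and short lines are group means. For Acly, Acaca and Fasn the 3 Albulin arrays lie above all saline and Insulin-Apo arrays.

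The rest of lipid metabolism showed few calls. None of 25 cholesterol genes, 28 triglyceride genes or 21 bile acid genes was called, with medians of -0.05, -0.08 and -0.14. Cyp7a1, the rate-limiting enzyme of bile acid synthesis, had the largest difference of these, from 13.63, 13.75 and 13.52 to 12.19, 11.21 and 11.09. Its groups did not overlap, and it was not called (log2 difference -2.14, SE 0.53, adjusted p = 0.0467). It was called in 3 alternatives, with only the saline and Albulin arrays and without Insulin-Apo replicate 2 or 3. Of the triglyceride genes, Plin2 had a difference of 0.61 (SE 0.14, adjusted p = 0.0325) and Lpin1 of -1.07 (SE 0.43, adjusted p = 0.209). Their groups did not overlap, and both were called with only the saline and Albulin arrays fitted. Of 27 fatty acid oxidation genes only Acot3, a peroxisomal thioesterase, was called, and it fell 2.23-fold. Angptl8, a liver hormone that restrains lipoprotein lipase, fell 3.21-fold, from 10.74, 10.67 and 11.01 to 8.76, 9.35 and 9.27. Abca1, the exporter that loads cholesterol onto apolipoprotein A-I, rose 1.59-fold, a call lost without Albulin replicate 1 or 2 or saline replicate 1, and Apoa1 itself differed by -0.06. None of 14 growth hormone and IGF genes was called.

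The circadian list had calls in both directions, 1 higher and 3 lower of 19, with a median of -0.18. Nfil3, which represses genes with a D-box, was at 8.70, 8.61 and 8.33 after saline and 10.42, 10.03 and 10.40 after Albulin. Per3, a period gene, went from 8.79, 9.10 and 8.94 to 8.02, 7.85 and 7.91 and Noct (nocturnin), a NADPH phosphatase, from 10.08, 9.93 and 10.39 to 8.48, 8.60 and 9.24. Usp2 was at 10.52, 10.73 and 10.58 against 8.60, 8.71 and 8.95. Dbp and Tef, which activate at the D-box, had differences of -0.97 and -0.54 and were not called, and Dbp was called in 12 of 21 alternatives. The core factors Arntl (BMAL1), Clock and Nr1d1 were not called, at 0.61, 0.16 and 0.27. The hour of the injection is not given in the sources used here.

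Per3 holds a D-box (TTANGTAA) at 205 and at 158 bases upstream of its start. The stretch around the former is chr4:151044852-151044881 on the minus strand of GRCm38.p6, shown because Nfil3 and Per3 moved in opposite directions, with the match in capitals.
Per3: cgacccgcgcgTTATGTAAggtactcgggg
The D-box lay in 2.35% of the windows of genes that fell, 4.55% of those of genes that rose and 1.93% of those tested. Whether Nfil3 acts on Per3 in these livers was not tested.

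Glucocorticoid targets did not move together. Of 15, Lcn2 and Mt1 rose and Tsc22d3 and Dusp1 fell, with a median of 0.03. Lcn2 is also counted among the acute phase proteins, Mt1 among the metal handling genes and Dusp1 among the MAP kinase genes. Tsc22d3 was at 10.997, 10.88 and 11.10 after saline and 9.19, 9.14 and 9.46 after Albulin. Dusp1, a MAP kinase phosphatase, fell 1.53-fold and lost its call in 13 of 21 alternatives. Fkbp5, Sgk1 and Per1 were at -0.47, 0.20 and -0.52, none of them called.

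Calls among growth and stress signalling genes differed between the lists. Of 22 immediate early factors only Junb was called, at 1.61-fold and not without Albulin replicate 1 or 2, while Fos, Egr1 and Myc were at -0.29, -0.54 and 0.21. None of 14 Kruppel-like factors was called. Among 22 MAP kinase and G protein feedback genes Egfr rose by 0.59 on the log2 scale beside the fall of Dusp1. Egfr lost its call in 6 alternatives, the replicate block and any Albulin array left out among them. Of 26 cell cycle and growth arrest genes, 2 were called higher and 2 lower (15.4% together). Of all genes 1.57% were called higher and 1.28% lower. The Gadd45 family of growth arrest genes split, with Gadd45g at 10.82, 10.65 and 10.22 against 12.39, 11.63 and 11.92, a rise of 2.67-fold, Gadd45a up 1.78-fold, and Gadd45b down 2.10-fold. Ccne2, a cyclin of the entry to S phase, fell by 0.63 on the log2 scale, from 6.94, 6.94 and 7.10 to 6.37, 6.36 and 6.34, values that are not shown to lie above background. The calls of Gadd45g and Gadd45b were each lost in 5 alternatives, that of Gadd45a in 2 and that of Ccne2 in none. Cdkn1b was not called by its brightest probe set, while 1 of its 2 probe sets was called.

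**Figure D5:**
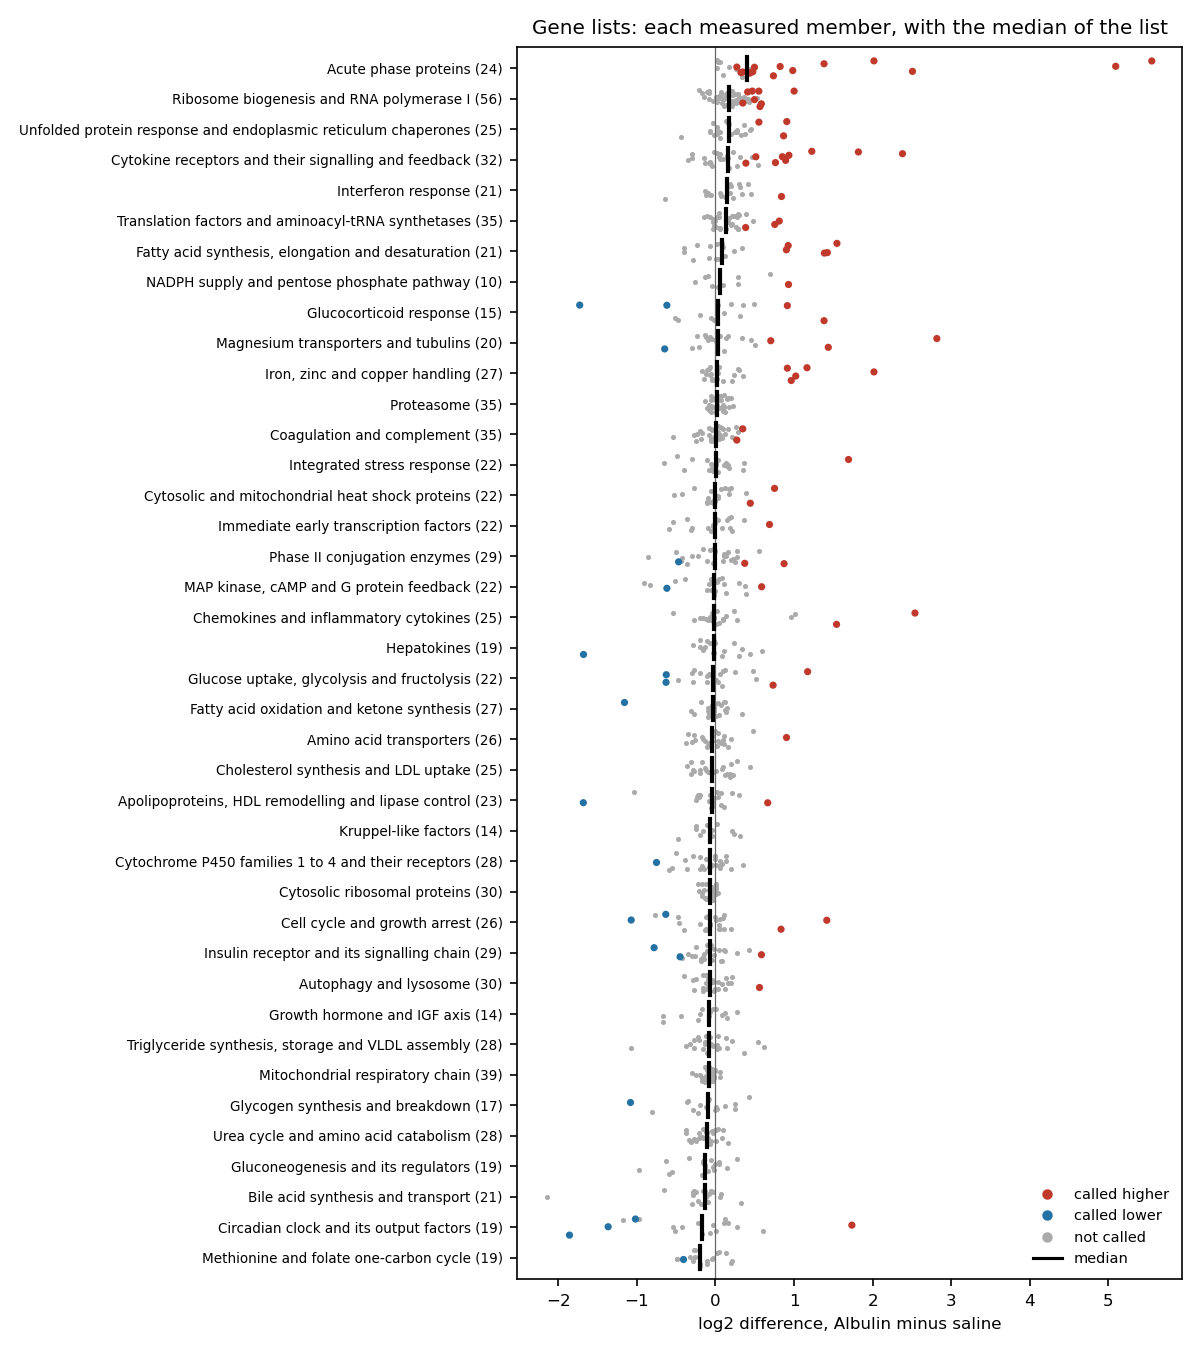
Log2 difference between Albulin and saline (horizontal axis) of every measured member of 40 gene lists, with the number measured in brackets and the lists ordered by their median (black line). Red points were called higher, blue points lower and grey points were not called, and points are spread vertically only to be visible. Acute phase proteins stand at the top with 14 of 24 called higher, and most lists have medians within 0.2 of 0.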

How the data were processed

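Liver RNA was hybridized to Affymetrix Mouse Gene 1.0 ST arrays. The authors corrected the background and normalized with RMA, so the deposited table holds log2 values, 1 for each of 28213 probe sets and each array. The RMA version, the annotation build and whether normalization was joint are not given in the sources. Groups came from the sample titles. Of the probe sets, 21640 carry 1 gene symbol in the platform annotation, and 21553 of these matched RefSeq (GRCm38.p6). Genes were named from these, using the probe set with the highest mean over the 9 arrays fitted where several carry a symbol.

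A probe set was tested if 2 or more arrays of a group were over 5. limma 3.58.1 (R 4.3.3) was fitted to 9 arrays (saline, Albulin and Insulin-Apo, 3 each). A probe set was called at B over 0 with a prior proportion of 0.01. P values were adjusted with the Benjamini-Hochberg method over all probe sets. The number of arrays limits the precision. Intervals are at 95% from the moderated t distribution.

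The comparison, the 40 gene lists and the 12 marker lists were chosen with earlier results of these data known. Genes named are the 12 largest called changes in each direction with arrays that do not overlap, up to 5 genes per list by smallest p, the checks Ins1, Ins2, Insr, Alb, Apoa1 and Cyp7a1, and the 6 called genes with the smallest p against Insulin-Apo. Others are named as chosen after their values were seen, or are list members given as values. Same-numbered saline and Albulin arrays did not deviate together (r of -0.07, 0.13 and 0.02), so they were not paired. Alternatives covered the filter, scaling, the replicate block, the variance model, the arrays fitted, the call rule, the probe sets used and each array left out. Motifs were counted in promoter windows of the RefSeq table with Python 3.11.15.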

Additional observations from a re-analysis of the deposited data

Results flagged for a closer look

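Of the genes called after Albulin, 6 were looked at in the test of Albulin against Insulin-Apo because they had the smallest p in it, and in each the effects of the fusion proteins differed. Acly was higher after Albulin by 1.52 on the log2 scale, Thrsp by 1.61 and Acaca by 1.09. The other 3 were lower after Albulin than after Insulin-Apo, Mpzl2 with a log2 difference of -0.67, Leng9 with -0.61 and Gatd1 with -0.61. Mpzl2, an adhesion molecule of the immunoglobulin family, was at 11.99, 12.10 and 12.15 after saline, 10.87, 11.01 and 11.02 after Albulin and 11.72, 11.57 and 11.62 after Insulin-Apo, so the Insulin-Apo arrays lay between the other groups. Gatd1 was at 10.08, 10.04 and 10.16 after Albulin, against 10.71, 10.68 and 10.70 after Insulin-Apo and 10.81, 10.82 and 10.70 after saline. Leng9 was at 8.18, 8.10 and 8.11 after Albulin and, after Insulin-Apo, at 8.78, 8.85 and 8.61, above the saline arrays at 8.59, 8.48 and 8.47. Against saline, Leng9 lost its call in 8 alternatives and Gatd1 with all 12 arrays in the fit. Since the genes were picked by this test, the values are a description.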

How the results depend on the processing

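The count of 626 probe sets called after Albulin against saline lay between 411 (without saline replicate 2) and 701 (without Insulin-Apo replicate 2) when single arrays were left out. It was 1219 at an adjusted p under 0.05 and 378 when a log2 change of at least 0.58 was also asked. The other alternatives, the scalings among them, stayed within 1.5 times the total, while the lower calls alone went from 270 to as few as 146 (without Albulin replicate 2). Of the 166 probe sets called between Albulin and Insulin-Apo, leaving out single arrays gave 75 (without Albulin replicate 1) to 179 (without Insulin-Apo replicate 3), all 12 arrays in the fit gave 90, an adjusted p under 0.05 gave 36, and with the change of at least 0.58 as well 28. It was 106 without Albulin replicate 3. With the replicate number as a block the counts were 590 and 165. Of 86 called genes among the 210 named by the rule, 54 were called in all 21 alternatives that use B, and none changed direction. With 3 arrays per group, standard errors have a median of 0.08 on the log2 scale. Cyp7a1 missed the call at a large difference, with an SD of 1.39 in the Insulin-Apo arrays and 0.60 in the Albulin arrays. It was called when only the saline and Albulin arrays were fitted.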

Other observations

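Genes called after Albulin that stand on none of the gene lists were looked through after their values were seen. Pim1, a kinase known as a STAT target, rose 3.30-fold, from 8.87, 9.38 and 8.84 after saline to 11.05, 10.70 and 10.51 after Albulin. Other increases were in Leap2, an antimicrobial peptide and ghrelin receptor ligand of the liver, at 2.41-fold, Nrp1, a co-receptor of semaphorins and VEGF, at 2.16-fold, Pdgfc, a growth factor, at 2.08-fold, and Il13ra1, a receptor chain for interleukin 13, at 1.93-fold. The call of Leap2 was lost with all 12 arrays and that of Il13ra1 without Albulin replicate 2. The phosphatase Ptpn2, which acts on JAK kinases and the insulin receptor, rose 1.86-fold and Litaf 1.91-fold. Mmp8, a collagenase of neutrophils, was at 6.04, 5.91 and 6.24 after saline and 7.52, 6.98 and 6.82 after Albulin, a call lost with all 12 arrays. These saline values are not shown to lie above background.

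Decreases outside the lists included Car5a, a mitochondrial carbonic anhydrase, at 2.19-fold, with log2 values of 10.68, 11.20 and 10.94 after saline and 9.84, 9.81 and 9.79 after Albulin. Etnppl, which breaks down phosphoethanolamine, fell 1.99-fold with a call lost with all 12 arrays, Slc29a1, a nucleoside transporter, 1.75-fold, Adcy9, an adenylyl cyclase, 1.71-fold and Wee1, a mitotic inhibitor kinase under clock control, 1.70-fold. Slc35e2, a member of the nucleotide sugar transporter family, had values of 12.06, 12.07 and 12.01 against 11.30, 11.29 and 11.17.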
